A study of Mus musculus with 9 samples.

Results

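The genes described here are 33 genes that make cholesterol and fatty acids or regulate that synthesis, taken by gene symbol from the 24532 genes listed for each mouse. They were measured by RNA sequencing in the medial prefrontal cortex of 9 mice, 3 in each of 3 groups. CT mice were wild type and not stressed. WT_ST mice were wild type and KO_ST mice were labeled Fkbp5-/-, a knock-out of the gene for a co-chaperone of the glucocorticoid receptor, and both of these groups went through chronic restraint stress. All 9 mice were C57BL/6 and 11 weeks old per the labels. The study's methods name the strain C57BL/6J. They give a younger age and describe 3 weeks of restraint, without saying whether that age was at its start. The methods add that the mice were male and singly caged, and that CT mice also went without food and water while the others were restrained. No unstressed knock-out group was sequenced, so KO_ST against CT joins genotype and stress, which cannot be told apart in it. Each library came from 1 mouse, and the p-values below measure the spread between these mice.

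All 33 genes were found, and all 33 passed the filter of a mean of 30 reads. They fall into 8 genes of the mevalonate and isoprenoid steps, 11 genes of the squalene and sterol steps, 6 regulators and sterol transporters, and 8 genes of fatty acid synthesis and desaturation. The first 19 are called the sterol genes here. Levels are FPKM, fragments scaled by transcript length and by the mapped reads of the library, which can be compared between genes. Differences are log2 fold changes of quantile-normalized log2(FPKM+1), tested with limma. A gene is called, and said to have risen or fallen, when its unadjusted limma p is under 0.05 and its fold change exceeds 1.2. This is a loose criterion, so the share of all genes that met it and the p adjusted over all genes are given beside it.

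Cholesterol is built in the brain itself, because circulating lipoproteins do not cross the blood-brain barrier. Acetyl-CoA is turned into mevalonate and isoprenoid units, these are joined to squalene, and squalene is closed and trimmed to cholesterol. The genes are known as targets of the SREBP transcription factors, which SCAP carries from the endoplasmic reticulum when sterol is low and INSIG proteins hold back when it is high. In this tissue oligodendrocytes use the product for myelin, and astrocytes supply it to neurons.

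Because the sterol genes had higher means together in the stressed mice, the promoter windows of 4 genes are shown. Each window covers 250 bases before to 50 bases after the transcript start in RefSeq (GRCm38.p6), read 5′ to 3′ along the gene. Capitals mark CCAAT on either strand, the box bound by NF-Y, and in Hmgcs1 also a match to the sterol regulatory element TCACNCCAC. Hmgcs1 lies at chr13:119690101-119690400 (plus strand), Msmo1 at chr8:64733529-64733828 (minus strand) and Insig1 at chr5:28071162-28071461 (plus strand). Elovl6, at chr3:129532136-129532435 (plus strand), is given as a fatty acid gene whose window holds no match.
Hmgcs1: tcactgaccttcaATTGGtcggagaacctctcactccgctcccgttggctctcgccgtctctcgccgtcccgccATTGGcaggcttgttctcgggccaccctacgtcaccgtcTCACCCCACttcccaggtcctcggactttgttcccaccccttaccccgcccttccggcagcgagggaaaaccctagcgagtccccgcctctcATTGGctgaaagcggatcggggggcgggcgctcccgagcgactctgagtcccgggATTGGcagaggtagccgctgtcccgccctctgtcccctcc
Msmo1: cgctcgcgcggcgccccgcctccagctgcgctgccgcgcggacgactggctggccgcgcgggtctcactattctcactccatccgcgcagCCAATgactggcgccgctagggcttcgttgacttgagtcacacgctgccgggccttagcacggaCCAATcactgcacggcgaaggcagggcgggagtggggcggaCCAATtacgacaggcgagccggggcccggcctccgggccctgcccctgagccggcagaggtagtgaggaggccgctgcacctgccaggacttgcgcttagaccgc
Insig1: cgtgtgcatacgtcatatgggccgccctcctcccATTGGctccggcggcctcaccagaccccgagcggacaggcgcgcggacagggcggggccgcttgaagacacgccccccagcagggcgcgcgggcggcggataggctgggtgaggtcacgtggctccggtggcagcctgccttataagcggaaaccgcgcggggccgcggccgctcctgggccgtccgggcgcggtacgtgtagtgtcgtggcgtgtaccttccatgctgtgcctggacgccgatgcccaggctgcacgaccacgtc
Elovl6: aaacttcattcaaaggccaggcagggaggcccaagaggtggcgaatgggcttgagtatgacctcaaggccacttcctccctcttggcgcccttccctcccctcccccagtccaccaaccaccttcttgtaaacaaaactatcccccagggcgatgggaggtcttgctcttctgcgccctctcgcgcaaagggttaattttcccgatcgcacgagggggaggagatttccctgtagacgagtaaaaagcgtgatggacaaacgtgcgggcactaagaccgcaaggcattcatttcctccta

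A window was found for 26 of the 33 genes. CCAAT was present in 15 of 16 sterol genes, in 4 of 5 regulators and in 2 of 5 fatty acid genes, and in 41.1% of all 27025 genes with a window. TCACNCCAC, searched on both strands, occurred in 1 of the 26 genes, Hmgcs1, and in 1.44% of all genes. The shorter form CACNCCAC, which contains every match of the longer one, occurred in 3 of 26 against 7.12%. The E-box CACGTG occurred in 5 of 26 against 8.09%. These matches describe the letters of the windows only.

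The 33 genes spanned a wide range of levels. Scd2, the main brain desaturase, was the highest with a mean of 229.7 FPKM over the 9 mice, followed by Hmgcs1 (89.1), Fads1 (77.4), Srebf2 (62.1), Fads2 (57.2) and Acly (48.7). Hsd17b7, which reduces a sterol ketone, was the lowest at 5.15 FPKM. Among the sterol genes the next highest after Hmgcs1 were Fdps (43.0), Msmo1 (36.5) and Fdft1 (34.8). The median standard deviation within groups was 0.101 on the log2 scale for the 33 genes and 0.0911 for all 14370 genes tested.

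**Figure D1:**
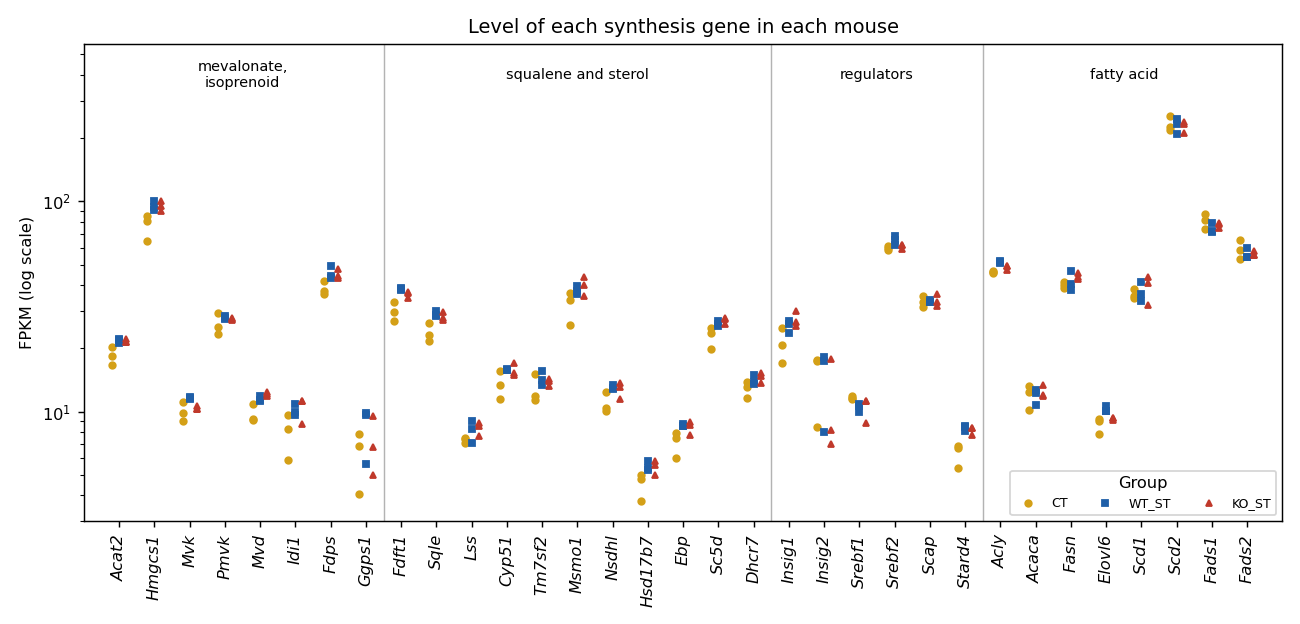
FPKM of each of the 33 genes (log axis) in each of the 9 mice, in pathway order, with circles for CT, squares for WT_ST and triangles for KO_ST. Scd2 and Hmgcs1 stand at the top, Hsd17b7 at the bottom, and Insig2 and Ggps1 spread more widely than their neighbors.

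Depth was 43778471 to 61150128 reads per mouse. Fkbp5 itself was 7.61, 6.46 and 7.28 FPKM in CT, 9.83, 9.47 and 10.3 in WT_ST and 3.59, 4.69 and 4.45 in KO_ST, so it was lowest in the mice labeled Fkbp5-/- without reaching 0. CT replicate 2 stood apart from the other mice for the sterol genes. It was the lowest of the 9 mice in 16 of the 19 sterol genes, and the counts of called genes against CT are given below with and without it.

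Chronic stress in wild-type mice was the first comparison. In WT_ST against CT, all 19 sterol genes had a higher mean in the stressed mice, with a median log2 fold change of 0.24 against 0.0034 over all genes tested. Of the 33 genes 7 rose and none fell, which is 21.2% of them, where 2.47% of all genes tested were called and 1.16% rose. Without quantile normalization 4 of the 33 were called, and 369 of all genes tested. The sterol genes Hmgcs1, Idi1, Fdft1, Sqle, Hsd17b7 and Ebp and the sterol carrier Stard4 made up this count. No gene of fatty acid synthesis was called, and the median of those 8 genes was 0.016. At any fold change 18 of the 33 had an unadjusted limma p under 0.05, where 7.86% of all genes did. None of the 33 passed an adjusted p of 0.05 with limma or edgeR, where 0.0348% and 0.0418% of all genes passed. DESeq2 passed 2 of the 33, Fdft1 and Stard4, where 0.501% of all genes passed. WT_ST and CT did not overlap in 14 of the 19 sterol genes, where 14% of all genes did not overlap.

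In KO_ST against CT, the mean was again higher in all 19 sterol genes, with a median of 0.24 against 0.0024 over all genes tested. Here 8 of the 33 genes rose and none fell, or 24.2%, where 3.56% of all genes tested were called and 1.54% rose. The count was 4 without quantile normalization and 5 with no filter on low counts. They were Hmgcs1, Mvd, Idi1, Fdft1, Msmo1, Hsd17b7, Insig1 and Stard4. The 8 fatty acid genes had a median of 0.082 and none was called. At any fold change 17 of the 33 had an unadjusted limma p under 0.05, where 9.46% of all genes did. Again none passed an adjusted p of 0.05 with limma or edgeR, against 0.0626% and 0.0557% of all genes. DESeq2 passed 1 of the 33, Stard4, against 0.786% of all genes. The groups did not overlap in 11 of the 19 sterol genes, where 15.8% of all genes did not overlap. The 2 comparisons share the 3 CT mice, so the values of each are set side by side and not counted as repeats.

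**Figure D2:**
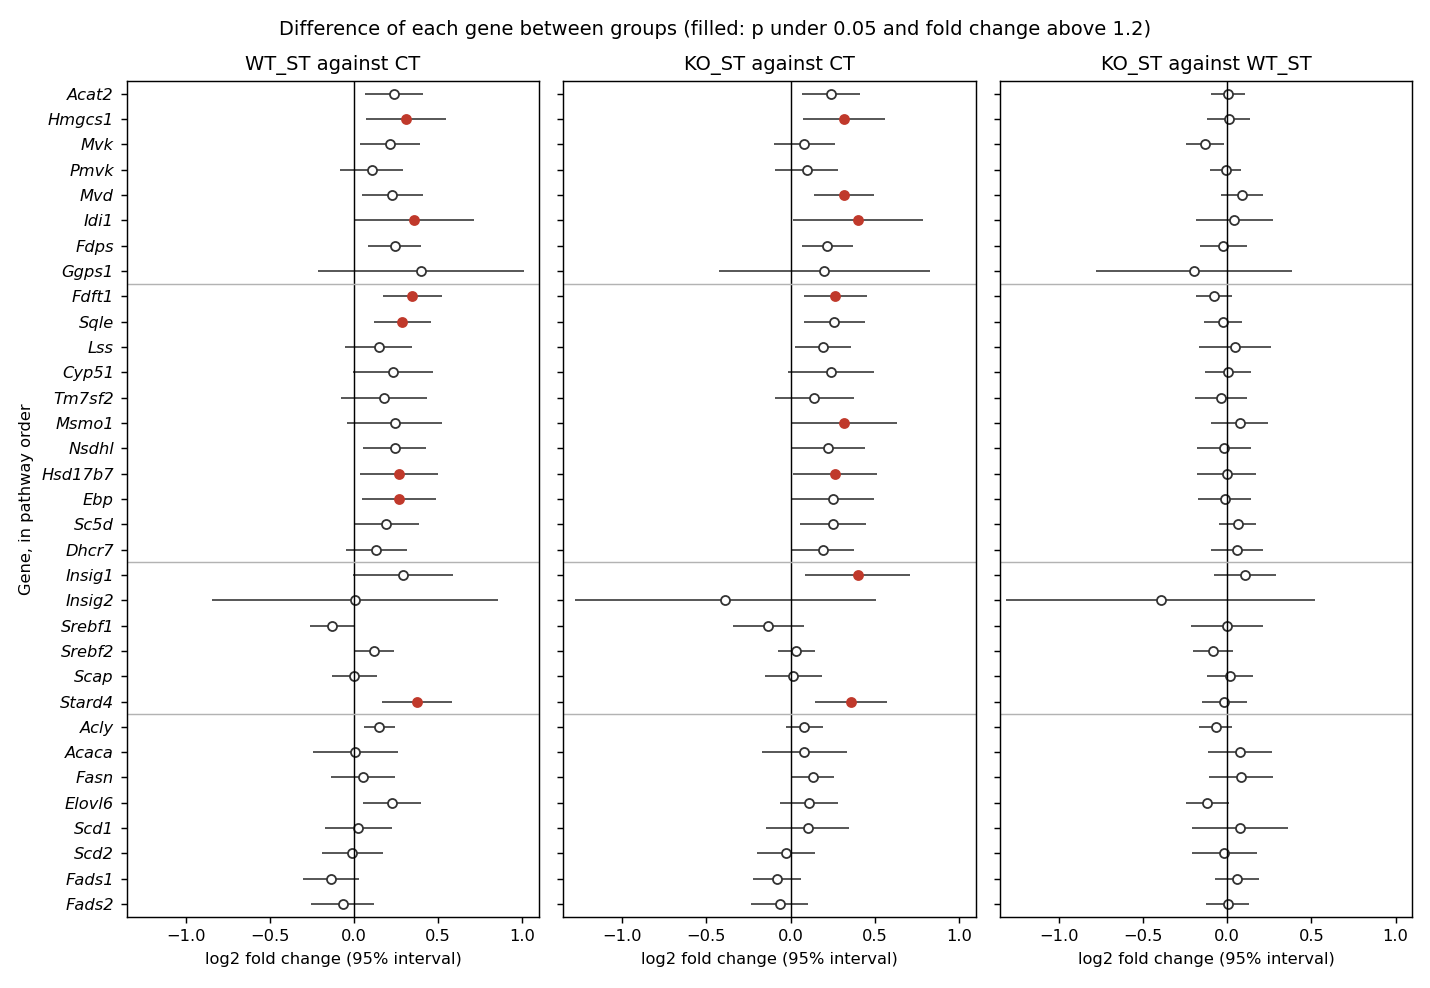
Log2 fold change of each gene (points) with its 95% interval (lines) in WT_ST against CT, KO_ST against CT and KO_ST against WT_ST, genes in pathway order from top to bottom and filled where called. The sterol genes lie to the right of 0 in both comparisons with CT, with 7 and 8 filled points over all 33 genes, and around 0 between the stressed groups, with none filled.

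Without CT replicate 2, the count of genes that rose was 2 in WT_ST against CT (Fdft1 and Stard4) and 3 in KO_ST against CT (Mvd, Insig1 and Stard4). The genes that lost their call in WT_ST against CT were Hmgcs1 (0.19), Idi1 (0.19), Sqle (0.22), Hsd17b7 (0.17) and Ebp (0.17), given with their log2 difference without this mouse. In KO_ST against CT they were Hmgcs1 (0.20), Idi1 (0.23), Fdft1 (0.19), Msmo1 (0.17) and Hsd17b7 (0.17). The sterol median was then 0.17 in both, and all 19 sterol genes still had a higher mean in the stressed group. Without CT replicate 3, the highest CT mouse for the sterol genes, the counts were 17 and 15, and 19 and 18 sterol genes had a higher mean. Over all genes tested, 277 and 410 were called without CT replicate 2 and 542 and 633 without CT replicate 3, beside 355 and 512 with all mice. Leaving out a stressed mouse also lowered the count for the 33 genes, to 4 in WT_ST against CT without WT_ST replicate 1 or WT_ST replicate 3, and to 4 in KO_ST against CT without KO_ST replicate 1. The number of genes past the threshold thus turned on single mice of each group.

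On the quantile-normalized scale, the level of each stressed mouse was above that of each CT mouse in 9 of the 19 sterol genes, where 2.75% of all genes tested had such a separation. These were Acat2, Hmgcs1, Mvd, Fdps, Fdft1, Sqle, Hsd17b7, Ebp and Sc5d. Stard4 and Elovl6 showed it as well, and Srebf1 showed the opposite, with every stressed mouse below every CT mouse, where 2.76% of all genes did.

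The early mevalonate steps were led by Hmgcs1, which makes HMG-CoA. Hmgcs1 was 80.3, 64.9 and 85.1 FPKM in CT, 101, 93.9 and 91.1 in WT_ST, and 101, 90.3 and 94.7 in KO_ST. All 6 stressed mice were above all 3 CT mice. On the log2 scale it rose by 0.31 in WT_ST (SE 0.0982, adjusted p = 0.634) and by 0.32 in KO_ST (SE 0.101, adjusted p = 0.499) against CT. Acat2, which condenses acetyl-CoA, was 18.4, 16.6 and 20.3 FPKM in CT and between 21.2 and 22.2 in the 6 stressed mice. Its log2 difference of 0.24 in each comparison (adjusted p = 0.630 and adjusted p = 0.491) was below the fold threshold. Of the 100-base windows of Acat2 transcripts 28.9% also occur in Acat3, which had 521 to 731 reads per mouse, so the split of reads between them is uncertain.

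Of the enzymes that phosphorylate and decarboxylate mevalonate, Mvd passed the fold threshold in KO_ST and not in WT_ST. Mvd, the decarboxylase, was 9.21, 9.15 and 10.9 FPKM in CT, 11.8, 11.2 and 11.3 in WT_ST, and 12.1, 12.4 and 11.9 in KO_ST. The 3 groups did not overlap, with CT lowest and KO_ST highest. It rose by 0.32 in KO_ST against CT (SE 0.0735, adjusted p = 0.458), and its difference in WT_ST was 0.23 (adjusted p = 0.634). The difference between KO_ST and WT_ST was 0.09 with a 95% interval of -0.03 to 0.21. Mvk, mevalonate kinase, was 9.04, 9.84 and 11.1 FPKM in CT, 11.7, 11.5 and 11.6 in WT_ST, and 10.3, 10.3 and 10.6 in KO_ST. WT_ST was above both other groups, and CT and KO_ST overlapped. Pmvk, the next kinase, was 25.2, 23.4 and 29.6 FPKM in CT, 28.4, 27.6 and 27.9 in WT_ST, and 27.7, 27.3 and 27.6 in KO_ST, with the stressed mice inside the range of CT.

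Isoprenoid building began with Idi1, the isomerase of isopentenyl diphosphate. Idi1 was 8.23, 5.88 and 9.62 FPKM in CT, 10.9, 9.95 and 9.60 in WT_ST, and 11.2, 8.76 and 11.2 in KO_ST. CT replicate 2 was far below the rest and CT replicate 3 reached the lowest stressed mice. It rose by 0.36 in WT_ST (SE 0.148, adjusted p = 0.635) and 0.40 in KO_ST (SE 0.161, adjusted p = 0.513) against CT, and without CT replicate 2 the differences were 0.19 and 0.23 and not called. Fdps, which makes farnesyl diphosphate, was 37.6, 36.2 and 41.9 FPKM in CT, 49.5, 43.1 and 44.3 in WT_ST, and 47.5, 43.0 and 44.4 in KO_ST. Every stressed mouse was above every CT mouse, and the differences of 0.24 (adjusted p = 0.630) and 0.22 (adjusted p = 0.489) were below the fold threshold. Part of the windows of Idi1 (15.8%) and Fdps (21.4%) also occur in other listed transcripts. Ggps1, which makes the precursor for geranylgeranylated proteins, was 6.86, 7.79 and 4.07 FPKM in CT, 5.65, 9.60 and 9.79 in WT_ST, and 6.81, 4.98 and 9.55 in KO_ST. Its groups overlapped, and the 95% interval in WT_ST against CT ran from -0.21 to 1.0.

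The step to squalene is made by Fdft1, squalene synthase. Fdft1 was 29.9, 26.9 and 33.3 FPKM in CT, 38.4, 37.9 and 38.5 in WT_ST, and 36.5, 37.1 and 34.5 in KO_ST. The groups did not overlap, with CT lowest and WT_ST highest. It rose by 0.34 in WT_ST (SE 0.0718, adjusted p = 0.542) and by 0.27 in KO_ST (SE 0.0765, adjusted p = 0.489) against CT. Sqle, the squalene epoxidase that limits this branch, was 23.1, 21.6 and 26.4 FPKM in CT, 30.1, 28.4 and 28.6 in WT_ST, and 29.6, 27.97 and 27.2 in KO_ST. All 6 stressed mice were above CT. Sqle rose by 0.29 in WT_ST (SE 0.0691, adjusted p = 0.586), and its difference of 0.26 in KO_ST (SE 0.0733, adjusted p = 0.489) lay just under the fold threshold.

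Of the enzymes that demethylate lanosterol and shape the sterol rings, Msmo1, the C4 methyl oxidase, was 33.8, 25.7 and 36.6 FPKM in CT, 39.4, 36.3 and 37.4 in WT_ST, and 43.5, 35.5 and 40.2 in KO_ST. CT replicate 3 lay among the stressed mice. It rose by 0.32 in KO_ST against CT (SE 0.130, adjusted p = 0.517), and the difference in WT_ST was 0.24 (adjusted p = 0.663). Without CT replicate 2 these were 0.17, not called, and 0.098. Hsd17b7 was 4.97, 3.77 and 4.78 FPKM in CT, 5.37, 5.28 and 5.82 in WT_ST, and 5.80, 4.97 and 5.56 in KO_ST. KO_ST replicate 2 was level with the highest CT mouse in FPKM, and the others were higher. The gene rose by 0.27 (SE 0.0963, adjusted p = 0.635) and 0.26 (SE 0.103, adjusted p = 0.501). Ebp, the sterol isomerase, was 7.46, 6.02 and 7.93 FPKM in CT, 8.53, 8.57 and 8.75 in WT_ST, and 7.78, 8.92 and 8.59 in KO_ST. In FPKM KO_ST replicate 1 lay below CT replicate 3, and WT_ST was above CT. It rose by 0.27 in WT_ST (SE 0.0904, adjusted p = 0.634), and its difference in KO_ST was 0.25 (adjusted p = 0.514), and without CT replicate 2 these were 0.17, not called, and 0.15.

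The other 6 genes of the sterol steps, Lss, Cyp51, Tm7sf2, Nsdhl, Sc5d and Dhcr7, were not called in any comparison. Their log2 differences against CT were between 0.13 (Dhcr7) and 0.24 (Nsdhl) in WT_ST and between 0.14 (Tm7sf2) and 0.25 (Sc5d) in KO_ST. Sc5d, the lathosterol desaturase, was 23.6, 19.9 and 24.9 FPKM in CT and 25.4 to 27.96 in the stressed mice, which did not overlap. Lss, which closes the rings, overlapped between CT and WT_ST, with 7.08 FPKM both in CT replicate 1 and in WT_ST replicate 1.

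**Figure D3:**
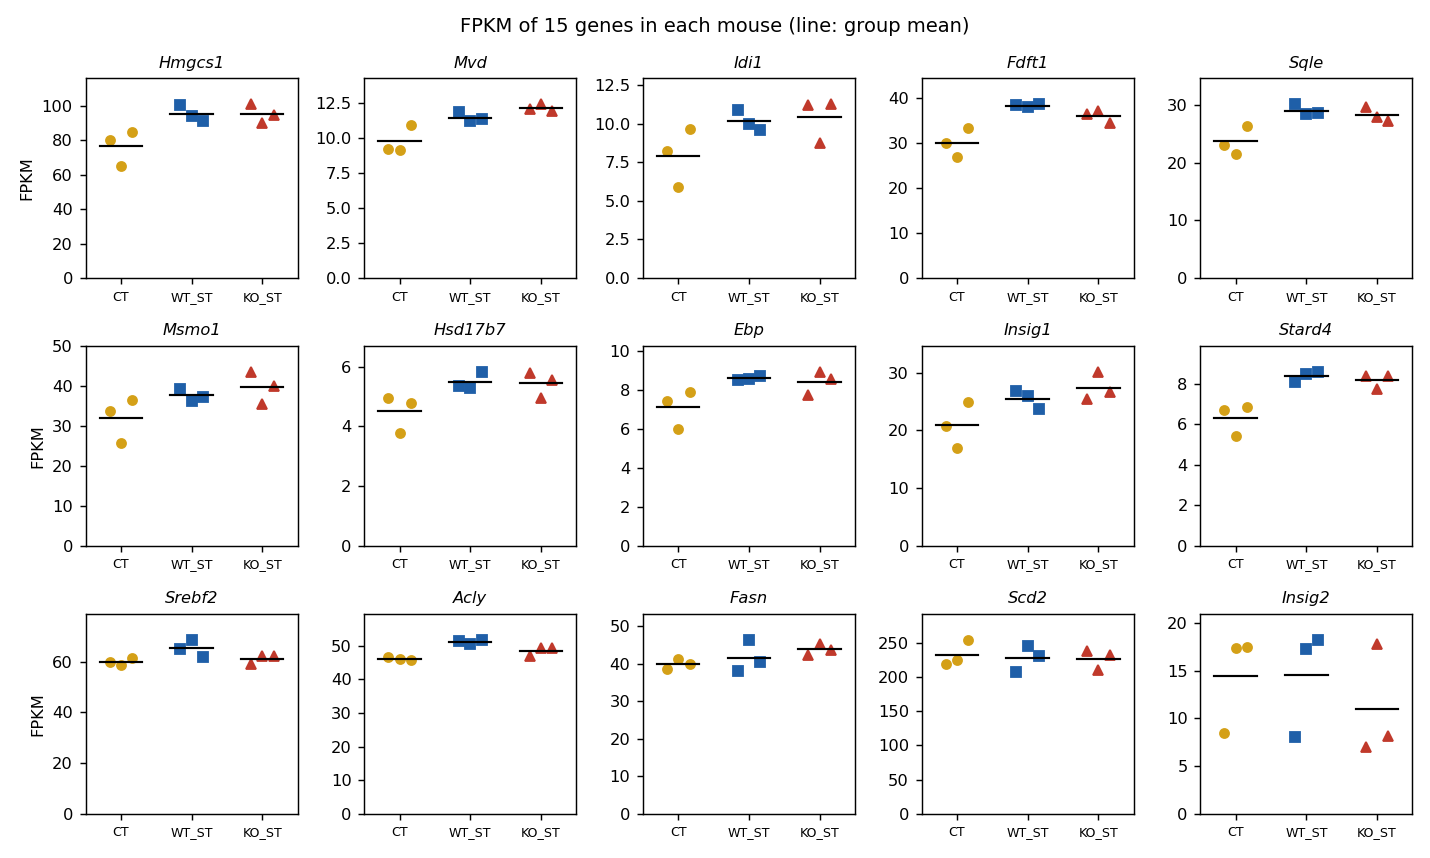
FPKM of 15 genes in each mouse (axes start at 0, lines are group means), with circles for CT, squares for WT_ST and triangles for KO_ST. The 2 upper rows hold the genes that rose in a comparison with CT. In the lowest row the groups overlap for Scd2, and Insig2 shows mice near 8 and near 17 FPKM in all groups.

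Among the regulators, Stard4, a carrier of free sterol in the cytosol, was 6.72, 5.41 and 6.86 FPKM in CT, 8.07, 8.47 and 8.57 in WT_ST, and 8.38, 7.75 and 8.39 in KO_ST. The stressed mice were all above CT. It rose by 0.38 in WT_ST (SE 0.0855, adjusted p = 0.542) and by 0.36 in KO_ST (SE 0.0882, adjusted p = 0.458), and it was called in both comparisons under each alternative and with each mouse left out. Insig1, a brake on SREBP, was 20.8, 16.98 and 25.0 FPKM in CT, 26.9, 26.0 and 23.6 in WT_ST, and 25.5, 30.1 and 26.6 in KO_ST. KO_ST lay above CT, and WT_ST replicate 3 was below CT replicate 3. Insig1 rose by 0.40 in KO_ST (SE 0.131, adjusted p = 0.499), and the difference in WT_ST was 0.29 (SE 0.124, adjusted p = 0.635). Without CT replicate 2 these were 0.27 and 0.16.

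Insig2, its paralog, was at 2 separate levels that crossed the groups. It was 8.46, 17.4 and 17.5 FPKM in CT, 8.01, 17.3 and 18.2 in WT_ST, and 7.04, 17.8 and 8.15 in KO_ST. Each group held mice at both levels, and the 95% interval of KO_ST against CT ran from -1.27 to 0.50.

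Neither SREBP gene passed the fold threshold. Srebf2, the factor of the sterol genes, was 59.7, 58.6 and 61.4 FPKM in CT, 65.1, 68.5 and 61.8 in WT_ST, and 59.1, 62.1 and 62.3 in KO_ST. WT_ST lay above CT by 0.12 (adjusted p = 0.635), short of the fold threshold, and KO_ST overlapped CT. Srebf1, which favors fatty acid genes, was 11.5, 11.6 and 11.9 FPKM in CT, 9.96, 10.8 and 10.7 in WT_ST, and 11.2, 8.83 and 11.2 in KO_ST. All stressed mice were below CT, with a log2 difference of -0.13 in each comparison (adjusted p = 0.635 in WT_ST and adjusted p = 0.658 in KO_ST), also short of the threshold. The ratio of Srebf2 to Srebf1 in FPKM was 5.06 to 5.19 in CT, 5.79 to 6.54 in WT_ST and 5.27 to 7.04 in KO_ST. Scap, the escort of SREBP, was 31.5, 35.3 and 33.2 FPKM in CT, 33.2, 33.9 and 33.3 in WT_ST, and 31.6, 36.1 and 33.3 in KO_ST, with the groups overlapping.

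The fatty acid genes were described next, as the other product of acetyl-CoA. None of the 8 was called in any comparison, and at any fold change 2 had an unadjusted p under 0.05 in WT_ST against CT, 1 in KO_ST against CT and 0 between the stressed groups, where 7.86%, 9.46% and 5.82% of all genes did. Acly, which makes cytosolic acetyl-CoA for both branches, was 46.6, 46.2 and 45.7 FPKM in CT, 51.3, 50.6 and 51.7 in WT_ST, and 47.0, 49.4 and 49.3 in KO_ST. In FPKM the 3 groups did not overlap, in the order CT, KO_ST, WT_ST, and WT_ST exceeded CT by 0.15 (SE 0.0365, adjusted p = 0.586). On the quantile-normalized log2 scale KO_ST replicate 1 (5.57) lay just below CT replicate 1 (5.58), so CT and KO_ST overlapped. Elovl6, an elongase, was 9.0, 7.84 and 9.24 FPKM in CT, 10.04, 10.7 and 10.01 in WT_ST, and 9.31, 9.29 and 9.13 in KO_ST. WT_ST was above CT by 0.23 (SE 0.0708, adjusted p = 0.634).

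Fasn, fatty acid synthase, was 38.8, 41.4 and 40.1 FPKM in CT, 38.0, 46.4 and 40.5 in WT_ST, and 42.5, 45.4 and 43.8 in KO_ST. KO_ST lay above CT by 0.13 (adjusted p = 0.501), and WT_ST mice lay on both sides of CT. Acaca, which makes malonyl-CoA, was 10.2 to 13.2 FPKM in CT and 10.7 to 13.4 in the stressed mice, and 23.7% of its windows also occur in another transcript. Scd2 was 219, 225 and 255 FPKM in CT, 208, 246 and 232 in WT_ST, and 239, 210.3 and 233 in KO_ST, with the groups overlapping. Scd1, the other desaturase, kept a similar proportion to it, and the ratio of Scd2 to Scd1 was 5.50 to 6.62 over the 9 mice. Fads1, which desaturates polyunsaturated fatty acids, was 74.0, 81.9 and 86.8 FPKM in CT, 71.9, 79.1 and 71.6 in WT_ST, and 79.2, 74.5 and 77.8 in KO_ST. Fads2, its partner in the same pathway, was 53.0, 58.9 and 65.5 FPKM in CT, 54.0, 59.7 and 54.4 in WT_ST, and 55.5, 55.4 and 58.0 in KO_ST. Both overlapped between groups, with log2 differences against CT between -0.14 and -0.07.

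To set the 2 branches side by side, the deviation of each gene from its 9-mouse mean was averaged per mouse on the log2 scale. For the sterol genes this was -0.14, -0.28 and -0.05 in CT, 0.07, 0.09 and 0.09 in WT_ST, and 0.11, 0.03 and 0.09 in KO_ST. For the fatty acid genes it was -0.05, -0.02 and 0.00064 in CT, -0.08, 0.10 and 0.0046 in WT_ST, and 0.02, -0.0040 and 0.03 in KO_ST. The sterol means of the 6 stressed mice were all above those of CT, and the fatty acid means overlapped. Sterol minus fatty acid was -0.09, -0.27 and -0.05 in CT, 0.15, -0.0037 and 0.08 in WT_ST, and 0.09, 0.03 and 0.05 in KO_ST. All stressed mice were thus above all CT mice in this difference as well, which is a description without a test since the genes were chosen with results known.

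**Figure D4:**
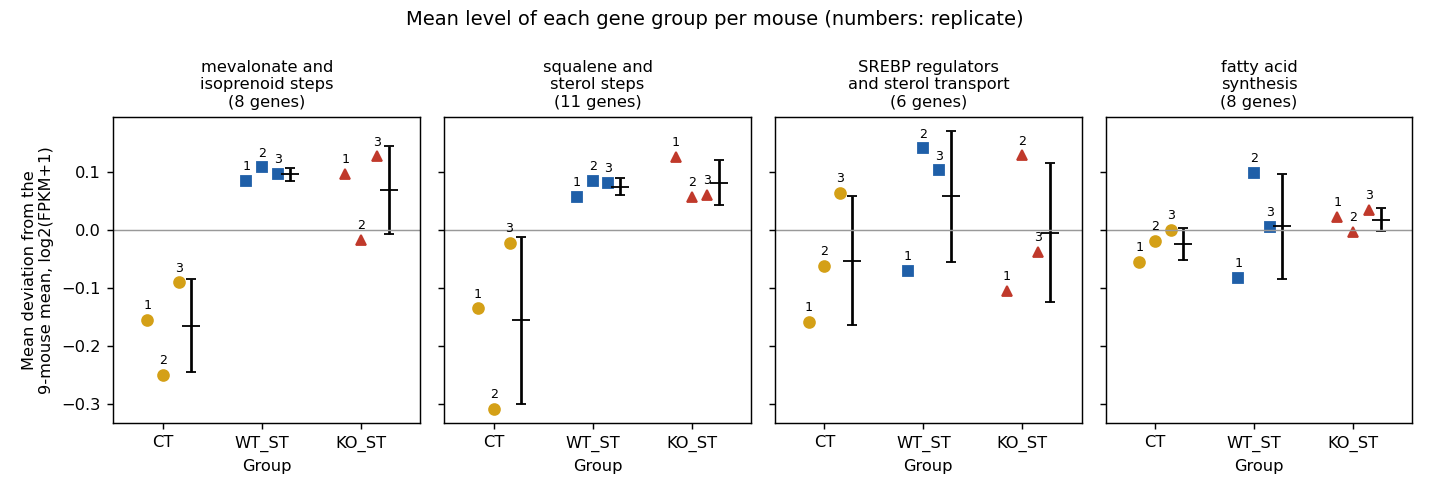
Mean deviation of log2(FPKM+1) from the 9-mouse mean for the 4 gene groups, 1 point per mouse numbered by replicate, with bars for the group mean and SD. In the squalene and sterol panel all 3 CT mice lie below 0 and all 6 stressed mice above it, while in the regulator and fatty acid panels the groups overlap.

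Fkbp5 genotype within stress was compared last. In KO_ST against WT_ST, none of the 33 genes was called by limma, edgeR or DESeq2, where 2%, 2.96% and 2.85% of all genes were. At any fold change 1 of the 33 had an unadjusted limma p under 0.05, where 5.82% of all genes did. This was Mvk, with a log2 difference of -0.13 (SE 0.0459, adjusted p = 0.816). The groups did not overlap in 5 of the 33 genes (15.2%), near the 11% of all genes tested. The sterol median was -0.0032 and the fatty acid median 0.03, against -0.0015 over all genes tested. For each of the 11 squalene and sterol genes the 95% interval lay within a fold change of 1.2 in either direction, from -0.19 (Tm7sf2) to 0.26 (Lss). The same held for 6 of 8 mevalonate genes, 6 of 8 fatty acid genes and 4 of 6 regulators. It did not hold for Idi1, Ggps1, Fasn, Scd1, Insig1 and Insig2, so the spread between mice leaves room for larger differences in those.

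Further genes of the pathway were read from lists that overlap none of the 33. Of 23 other fatty acid genes tested, none was called by limma in any of the 3 comparisons, with medians of 0.0035 in WT_ST against CT, 0.03 in KO_ST against CT and -0.02 in KO_ST against WT_ST. At any fold change 1, 1 and 0 of them had an unadjusted limma p under 0.05, where 7.86%, 9.46% and 5.82% of all genes did. Among the other SREBP pathway genes, Lpin1, a phosphatidate phosphatase, was 3.11, 2.74 and 3.23 FPKM in CT, 4.75, 2.99 and 3.21 in WT_ST, and 3.33, 4.31 and 4.69 in KO_ST. All 3 KO_ST mice were above CT, and WT_ST overlapped CT. It rose by 0.37 in KO_ST against CT (SE 0.109, adjusted p = 0.495).

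In bulk tissue fewer cells of a type and less RNA per cell cannot be told apart, so the levels of cell-type markers are given beside these results. Counts of called markers are against CT, where 2.47% of all genes were called in WT_ST and 3.56% in KO_ST. The summed FPKM of 12 oligodendrocyte markers was 550.3, 517 and 991 in CT, 562, 886 and 822 in WT_ST, and 601, 662 and 778 in KO_ST. The sums overlapped between groups and none of these markers was called, while the mean was higher in WT_ST than in CT for all 12 (median log2 difference 0.24) and in KO_ST for 10 of them (median 0.10). For 6 oligodendrocyte precursor markers the sum was 30.8 to 52.7 in CT, 31.1 to 40.2 in WT_ST and 24.1 to 38.1 in KO_ST, and the mean was lower for 5 of them in WT_ST (median log2 difference -0.17) and for 6 in KO_ST (median -0.16), with 1 called in each. For 9 neuron markers the sum was 2715, 2296 and 2706 in CT, 3025, 2838 and 2772 in WT_ST, and 2796 to 2988 in KO_ST, so CT was lowest and CT replicate 2 the lowest mouse, though none of these markers was called. For 8 microglia markers it was 171 to 216 in CT, 137 to 154 in WT_ST and 78.4 to 166 in KO_ST, so CT was highest, and 7 of them fell in WT_ST and 6 in KO_ST. For 8 astrocyte markers it was 748 to 812 in CT, 668 to 701 in WT_ST and 681 to 785 in KO_ST, and 2 of them fell in WT_ST. For 6 striatal markers it was 46.1 to 55.0 in CT, 55.6 to 68.9 in WT_ST and 46.6 to 56.7 in KO_ST, and 3 of them rose in WT_ST and 1 in KO_ST. For 6 endothelial and mural markers it was 65.5 to 74.7 in CT, 59.5 to 71.3 in WT_ST and 52.1 to 71.4 in KO_ST, and 1 fell in each stressed group. The part of the oligodendrocyte, oligodendrocyte precursor, neuron, microglia, astrocyte, striatal and endothelial shifts in the sterol result was not tested.

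**Figure D5:**
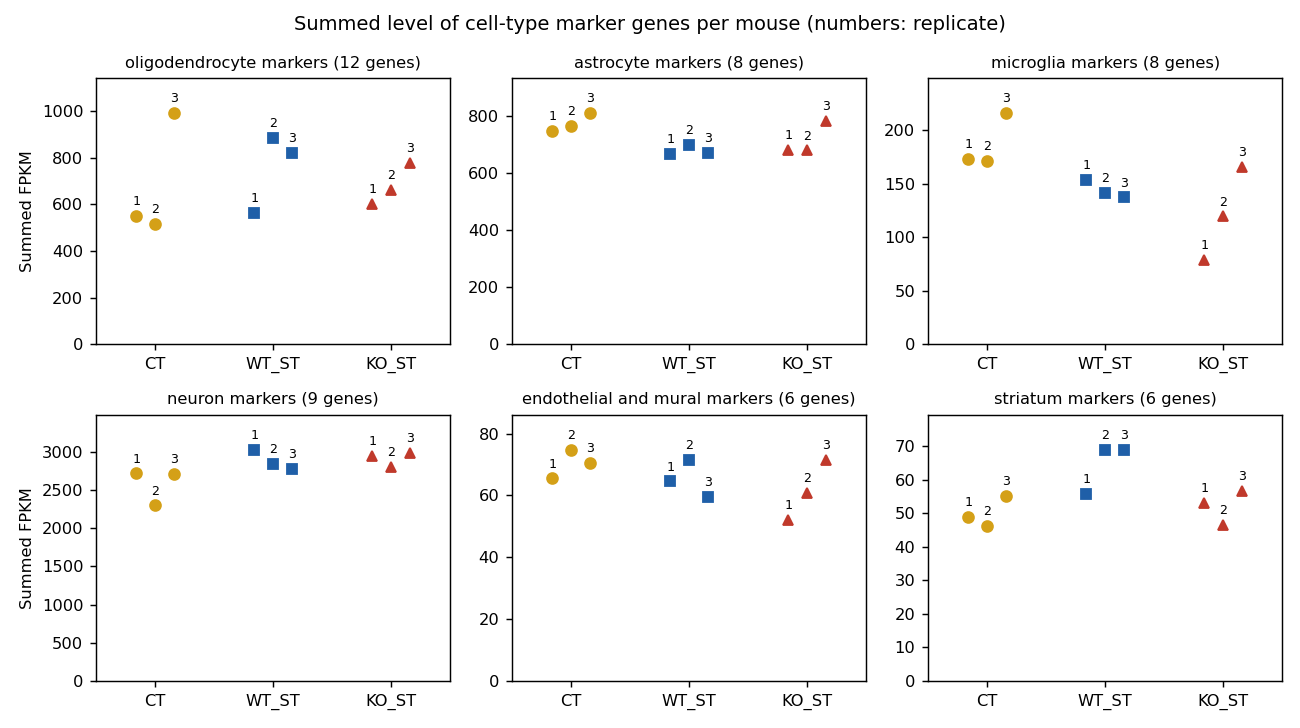
Summed FPKM of marker genes for 6 cell types or regions in each mouse (axes start at 0, points numbered by replicate). Oligodendrocyte sums overlap between groups, microglia sums are higher in the 3 CT mice than in the stressed mice, and neuron sums are lower in CT.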

How the data were processed

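RNA of the medial prefrontal cortex of 9 mice was sequenced with a stranded mRNA kit, 1 library per mouse. Per the submitters' processing notes, reads were handled with HISAT2 2.1.0, Bowtie2 2.3.4.1 and StringTie 1.3.4d on mm10. The authors deposited read counts per gene, not normalized, and FPKM, which is scaled for length and mapped reads. FPKM was kept as the main measure after the study's methods. Values were taken as log2(FPKM + 1) and quantile normalized over the 9 mice, and genes with a mean of at least 30 reads (14370) were tested with limma 3.58.1 in R 4.3.3, using a mean-variance trend and only the 6 mice of each comparison. Adjusted p is Benjamini-Hochberg over all genes tested, and intervals are 95%. The read counts were also tested with DESeq2 1.42.0 and edgeR 4.0.16, and the closing section gives the other settings tried. The counts of sterol genes called, or with a higher mean, were added to these after the data were seen.

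The 33 genes, the pathway and marker lists and the motifs were chosen with earlier results of these data known. Values per mouse are given for genes called in any comparison, and in each gene group for the 3 highest in FPKM and the 2 with the largest change. Replicate numbers come from the labels. The mean correlation of deviations from group means was -0.0101 for mice of the same number and 0.00494 for the other pairs, so mice were not paired in the main test. Windows shared with other genes were counted on reference transcripts. The scripts were tested on simulated data. Of the 24 other fatty acid genes listed, Elovl3 had no reads. Some genes of the other pathway lists are not reported here. Plots were made in Python 3.11.15 with matplotlib 3.10.9.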

Additional observations from a re-analysis of the deposited data

How the results depend on the processing

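Over 9 alternative settings and 6 fits that each left out 1 mouse, no difference that was called changed sign. Of 495 gene values per comparison, 461 kept their side of the threshold in WT_ST against CT, 448 in KO_ST against CT and 495 in KO_ST against WT_ST. Without quantile normalization 4 of the 33 genes were called in each comparison with CT, and 3 and 2 of the sterol genes. With no filter on low counts 5 of the 33 and 3 sterol genes were called in KO_ST against CT. At an unadjusted p under 0.05 and any fold change the counts were 18, 17 and 1 for the 33 genes, 13, 14 and 1 for the sterol genes, and 1129, 1359 and 837 for all genes, in the order WT_ST against CT, KO_ST against CT and KO_ST against WT_ST. The adjusted p of DESeq2 passed 2 and 1 of the 33 genes against CT, where limma passed 0. Over all genes, WT_ST against CT gave 544 calls with a pseudocount of 0.1, 535 with edgeR under TMM or RLE and 552 with DESeq2, and KO_ST against WT_ST gave 445 with the pseudocount. The cause of these shifts was not tested.

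Leaving out 1 mouse at a time gave 2 to 17 called genes among the 33 in WT_ST against CT and 3 to 15 in KO_ST against CT, for the sterol genes 1 to 14 and 1 to 13, and for all genes 277 to 542, 410 to 734 and 245 to 477. The ends of the ranges for the 33 genes came from leaving out CT replicate 2 (2 and 3) and CT replicate 3 (17 and 15), and 4 genes were called without WT_ST replicate 1, WT_ST replicate 3 or KO_ST replicate 1. The sterol median against CT stayed at 0.17 to 0.30 in both comparisons, with 19 and 18 to 19 genes higher. The fatty acid median ran from -0.045 to 0.083 in WT_ST against CT, from 0.04 to 0.08 in KO_ST against CT and from -0.01 to 0.07 between the stressed groups, where the sterol median ran from -0.03 to 0.02 with 6 to 13 genes higher. Idi1 lost its call most often, being called in 5 of the 9 settings in each comparison with CT. With the replicate number as a block, 7, 8 and 0 of the 33 genes were called, and no count moved by more than 1.5 times. The labels link same-numbered mice by the number only, so whether they shared a batch is not known. With 3 mice per group, fold changes near 1.2 lie close to what the spread can resolve.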
